A study of Mus musculus with 10 samples.

Results

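Mitochondrial fatty acid oxidation and its neighbouring ketone steps were read out here through 29 genes: the carnitine shuttle, the acyl-CoA dehydrogenases, the enzymes of hydration, second oxidation and thiolysis, the double-bond enzymes, the electron transfer flavoprotein and its oxidoreductase, the enzymes of ketone bodies and acetate, and malonyl-CoA decarboxylase. The 29 members were chosen by name from the known pathway, with earlier results of these data known. They were followed among the 41249 gene identifiers counted in interscapular brown adipose tissue (iBAT). One library was made from the whole depot of each of 5 Axl KO and 5 wild-type (WT) animals. Axl KO mice lack the receptor tyrosine kinase AXL throughout the body and constitutively, through a knockout-first gene trap made in embryonic stem cells and bred onto C57BL/6 mice, so no value can be assigned to the loss of AXL in brown adipocytes alone. No other altered allele is described for either group, and both received a high-fat diet (HFD) for 24 weeks from an age of 6 to 8 weeks, per the labels, at room temperature. The study's text gives a slightly older age and a longer diet, and describes the sequenced mice as males. The comparison asks how these transcripts differ between Axl KO and WT mice after the same diet.

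Long-chain fatty acids enter mitochondria as carnitine esters and are then shortened by repeated cycles of oxidation, hydration, oxidation and thiolysis. The electrons pass through flavoproteins and NADH to the respiratory chain, where UCP1 lets brown adipocytes release the energy as heat. Brown fat is rich in these enzymes, uses the muscle form of carnitine palmitoyltransferase 1, and takes up ketone bodies and acetate as additional fuels.

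The Axl transcript was checked first. Axl KO mice 1 to 5 had 2.01, 1.95, 1.75, 0.437 and 1.69 CPM, counts scaled to an equal library size, and WT mice 1 to 5 had 52.3, 38.2, 41.3, 38.5 and 45.2 CPM. The groups did not overlap, and Axl was lower in Axl KO mice by a log2 fold change of -4.77 (edgeR quasi-likelihood test, adjusted p = 1.1e-07). The libraries held between 5431014 and 9580215 counts. Skeletal muscle transcripts, a tissue that lies against the depot, ranged from a sum of 104 to 9824 CPM over 17 markers in Axl KO mice and from 2048 to 10430.0 CPM in WT mice, and all 17 had a lower mean in Axl KO mice (log2 fold changes with a median of -1.03, none at an unadjusted p under 0.05). The 13 brown adipocyte markers summed to 9036 to 12343 CPM in Axl KO and 7196 to 9385 CPM in WT mice. Of these, 12 were higher in Axl KO mice, 6 at an unadjusted p under 0.05 and none past the adjusted threshold. Among all genes tested, 49.8% were higher, and 4.54% were higher and 3.86% lower at an unadjusted p under 0.05. Of 8 fibroblast markers, 7 had a lower mean in Axl KO mice (median log2 fold change -0.24), with Col1a1 and Col1a2 at an unadjusted p under 0.05, and the sums were 569 to 927 CPM against 799.6 to 1031 CPM. Of 8 endothelial markers, 5 had a lower mean, Cldn5 and Egfl7 at that level (log2 fold changes of -0.73 and -0.31). The macrophage sums, 149 to 275 and 169 to 257 CPM, and the erythroid sums, 384 to 715 and 475 to 667 CPM, overlapped between Axl KO and WT mice. Defining markers of T and B cells summed to at most 2.56 CPM. In whole tissue, fewer cells of a type and less RNA per cell cannot be told apart.

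Across all 13739 genes tested, with a mean above 1 CPM, 1 gene, Axl, passed an adjusted p of 0.05 (0.00728% of the genes). No member of the fatty acid oxidation and ketone set passed it; 3 members reached an unadjusted p under 0.05. These were Acad11, Mlycd and Slc25a20, and each was higher in Axl KO mice. Among all genes, 4.54% were higher and 3.86% were lower at that unadjusted level. Of the 28 members that could be tested, 23 were higher on average in Axl KO mice and 5 lower, beside 49.8% of all genes higher. The median log2 fold change of the 28 was 0.11, against a median of -0.00059 over all genes. The members share mice, libraries and much of their variation, so their counts are not independent observations. DESeq2, a second count test, also called 0 members in the 10 mice, and 9 of all genes (0.0655%). Without Axl KO mouse 3, edgeR put 10 members at an unadjusted p under 0.05, all higher, beside 7.73% of all genes higher at that level, and called 0 past the adjusted threshold. On the same 9 mice DESeq2 called 4 members, Acad11, Mlycd, Acss1 and Crat, all higher in Axl KO mice, beside 234 of all genes (1.71%), where leaving out any other mouse gave 1 to 8 genes and 0 members.

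**Figure D1:**
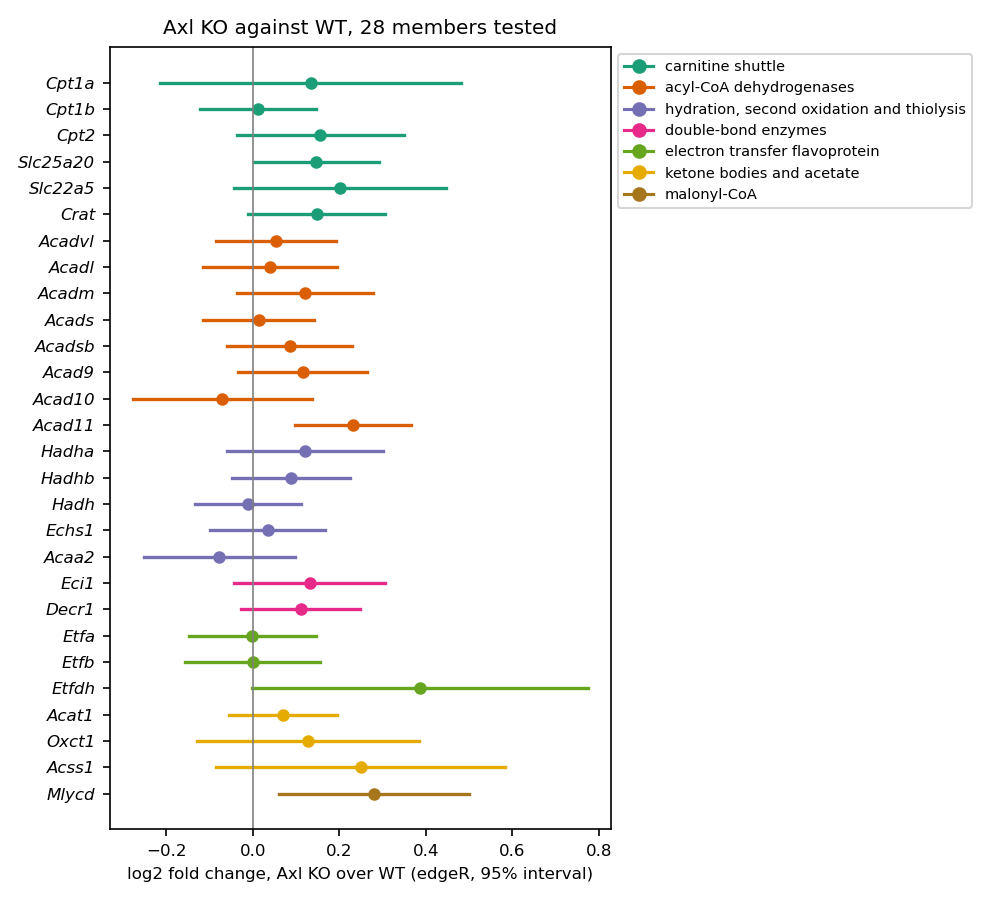
The log2 fold change of each of the 28 tested members (points) in Axl KO over WT mice is plotted with its 95% interval from edgeR (lines), coloured by role. Acad11, Mlycd and Slc25a20 have intervals above 0, Etfdh has the largest estimate at 0.39 with an interval that reaches just below 0, and 5 estimates lie below 0.

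In WT brown fat the set spanned a wide range of levels. Per kilobase of exon, the highest level was that of Acaa2, a thiolase of shorter chains, at 2192 CPM per kb. Acadvl, the very long-chain acyl-CoA dehydrogenase, followed at 1333 CPM per kb. Acadl, which acts on long chains, had 965 CPM per kb, and Etfb, a subunit of the electron transfer flavoprotein, had 699 CPM per kb. At the other end, Cpt1a, the liver form of carnitine palmitoyltransferase 1, had 4.45 CPM per kb and Bdh1, which interconverts acetoacetate and beta-hydroxybutyrate, had 0.116 CPM per kb. Bdh1 had 0 to 15 counts per mouse, means of 0.708 and 0.450 CPM, and was the 1 member below the filter. These lengths were the union of all annotated exons, retained introns included. With the principal transcript of each gene, Acaa2 and Acadvl kept the first ranks, with 2192 and 1651 CPM per kb, while Hadhb moved from rank 7 to rank 3 and Echs1 from rank 19 to rank 12, so the order of the middle ranks depends on the length used.

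**Figure D2:**
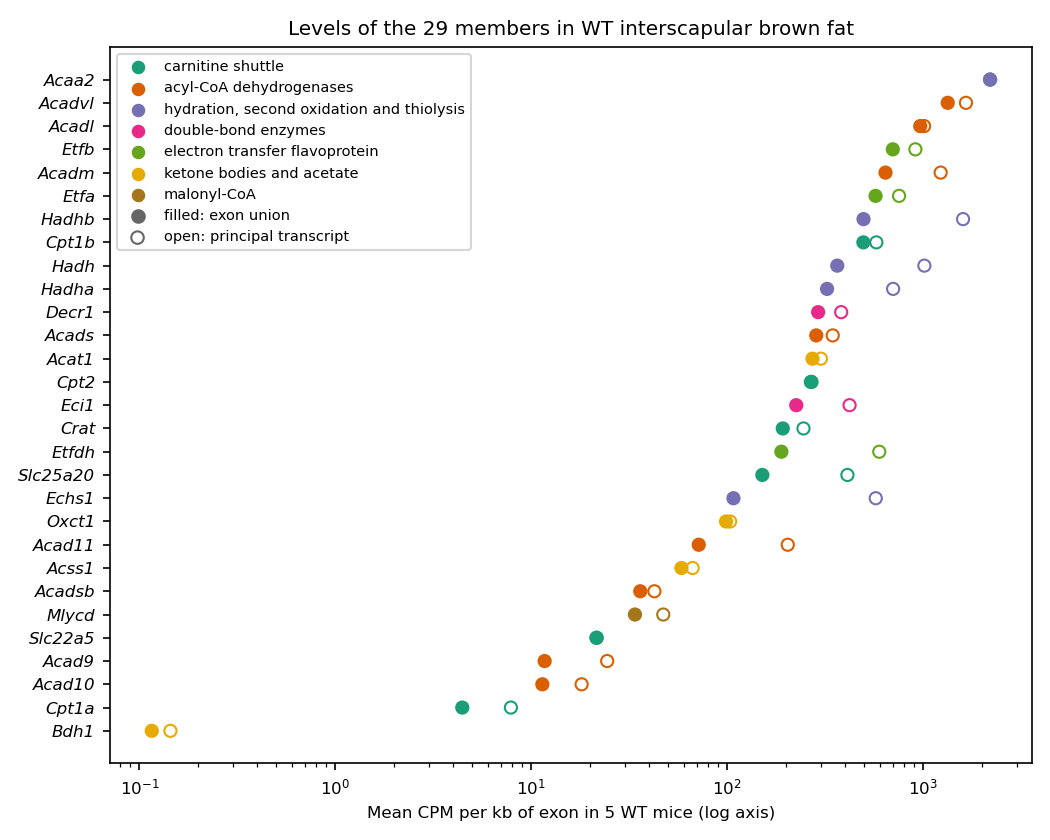
The mean level of each of the 29 members in 5 WT mice is plotted in CPM per kb on a log axis, with the union of exons as filled points and the principal transcript as open points, coloured by role. Acaa2 is highest at 2192 and Bdh1 lowest at 0.116 CPM per kb, and Hadhb, Echs1 and Etfdh shift most between the lengths.

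The 6 genes of the carnitine shuttle were all higher on average in Axl KO mice, with log2 fold changes between 0.012 and 0.20 (median 0.15). Slc25a20, the carnitine-acylcarnitine carrier of the inner membrane (chr9:108662088-108684641, GRCm38, plus strand), had 735, 849.9, 747, 862 and 856 CPM in Axl KO mice 1 to 5 and 693, 776, 707, 757 and 724 CPM in WT mice 1 to 5. Of the 5 Axl KO mice, 3 were above the highest WT mouse, and the groups overlapped. The means were 809.9 ± 63.3 and 731 ± 34.4 CPM (SD, n = 5), and the log2 fold change was 0.15 ± 0.067 (SE). The exact permutation test gave p = 0.0635, and edgeR gave 0.0464 unadjusted and 0.588 adjusted.

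Crat, carnitine acetyltransferase, which buffers acetyl-CoA as acetylcarnitine, behaved alike in 4 of 5 Axl KO mice. Its values were 1154, 1137, 978, 1187 and 1271 CPM in Axl KO mice and 997, 1105, 972, 1064 and 1032 CPM in WT mice. All Axl KO mice but mouse 3 exceeded the highest WT mouse, and mouse 3 lay at the bottom of the WT range (log2 fold change 0.15 ± 0.073 SE, edgeR adjusted p = 0.602).

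Cpt1b, the form of carnitine palmitoyltransferase 1 that predominates in muscle and brown fat, was the member of the shuttle with the highest level. Axl KO mice had 1597, 1719.9, 1561, 1819 and 1712 CPM, and WT mice had 1619, 1803, 1625, 1654 and 1640.1 CPM. The exons of Cpt1b overlap those of the gene model Gm44502 on the same strand over 81.4% of their length. Gm44502 is not among the gene identifiers counted, and how shared reads were treated is not given, so the Cpt1b counts are uncertain. The ranges almost coincided, and the interval of the log2 fold change ran from -0.12 to 0.15. Cpt1b exceeded Cpt1a by 32.0 to 55.6 times in counts in Axl KO mice and by 35.3 to 61.0 times in WT mice, without regard to length, and the log2 ratio differed by -0.13 between the groups (two-sided exact permutation test, p = 0.484, adjusted p = 0.976 over 6 ratios). Cpt2, which releases the acyl group inside the mitochondrion, had 711 ± 92.2 and 638 ± 44.4 CPM, and Slc22a5, the carnitine importer of the plasma membrane, had 76.0 ± 9.08 and 66.0 ± 10.1 CPM in Axl KO and WT mice. Neither difference passed the unadjusted test.

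The ratio of Cpt2 to Slc25a20 differed by 0.0047 on the log2 scale (exact permutation p = 0.960). It lay between 0.801 and 0.911 in WT mice and between 0.760 and 1.00 in Axl KO mice.

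Among the 8 acyl-CoA dehydrogenases, a family that includes the enzymes of the first oxidation of each cycle, 7 were higher on average in Axl KO mice (median log2 fold change 0.070). Acad11, which acts on long-chain and 4-hydroxy acyl-CoAs and lies at chr9:104063377-104127725 on the plus strand, had the lowest p of all members. Axl KO mice 1 to 5 had 832, 829.65, 731, 827 and 896 CPM, and WT mice 1 to 5 had 704, 729, 683, 701 and 686 CPM. Every Axl KO mouse was above every WT mouse, narrowly so for Axl KO mouse 3 over WT mouse 2. Acad11 was the 1 member without overlap, where 0.735% of all genes lay wholly higher and 0.619% wholly lower in Axl KO mice. The means were 823 ± 59.0 and 701 ± 18.3 CPM (SD, n = 5), a difference of 17.4%, and the log2 fold change was 0.23 ± 0.062 (SE, 95% interval 0.098 to 0.37). The exact permutation test gave p = 0.00794, the smallest it can give for 5 against 5, and edgeR gave 0.00249 unadjusted and 0.571 adjusted. The difference thus did not hold after correction for all genes.

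**Figure D3:**
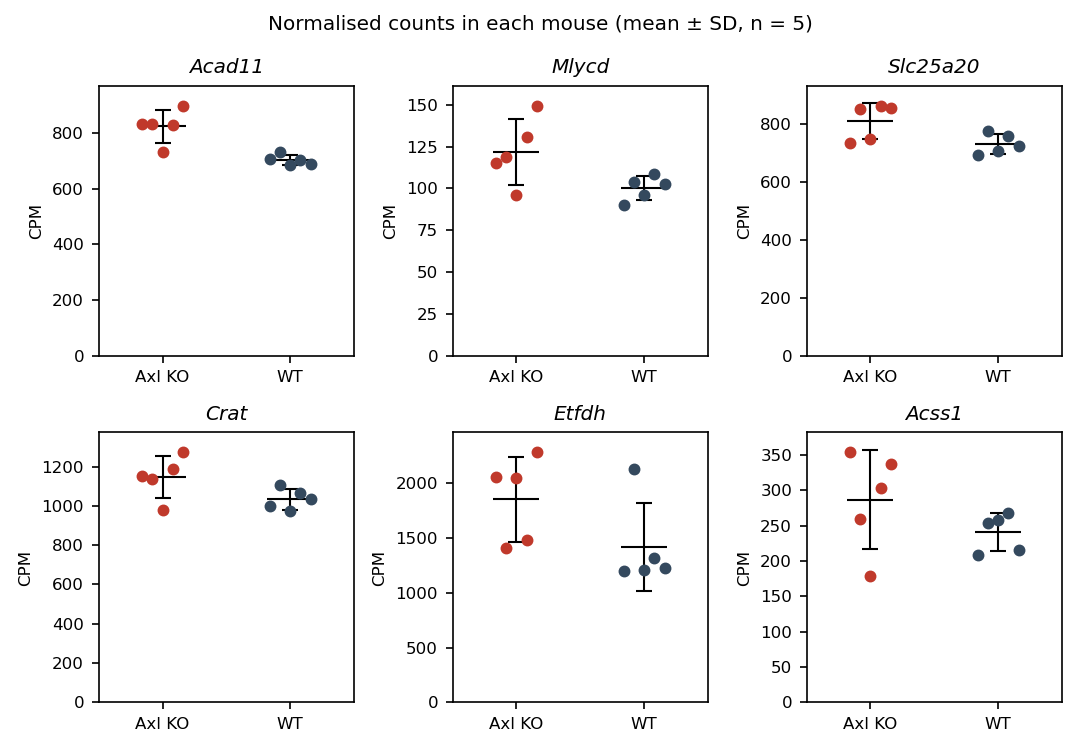
CPM in each mouse (points), with the mean and SD of 5 mice, is shown for Acad11, Mlycd, Slc25a20, Crat, Etfdh and Acss1, each on a linear axis from 0. Acad11 is the 1 gene without overlap, Axl KO mouse 3 is the lowest Axl KO point for Acad11, Mlycd, Crat and Acss1, and Etfdh spreads from 1195 to 2281 CPM with 1 WT mouse at 2126 CPM.

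Acadvl had the highest counts of all members. Axl KO mice had 3490.4, 3717, 3452, 3981 and 3947.5 CPM, and WT mice had 3489.6, 3765, 3323, 3659 and 3663 CPM. Axl KO mice 4 and 5 lay above all WT mice and mouse 3 within them, and the log2 fold change was 0.054 ± 0.064 (SE). The exons of Acadvl overlap those of Dvl2 on the opposite strand over 42.9% of their length. Dvl2 had 32 to 62 counts per mouse, but the strand setting and the treatment of shared reads are not given. The Acadvl counts are therefore uncertain too.

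The medium-chain enzyme Acadm had 2729.5 ± 245 CPM in Axl KO and 2511 ± 136 CPM in WT mice, Acadl 1989.5 ± 162 and 1934.5 ± 122 CPM, and the short-chain enzyme Acads 651 ± 33.4 and 645 ± 31.7 CPM. The ratio of Acadl to Acadm was 0.687 to 0.754 in Axl KO and 0.728 to 0.823 in WT mice, a log2 difference of -0.079 (exact permutation p = 0.127, adjusted p = 0.762). Acadsb, of the short and branched chains, Acad9, which also serves in the assembly of respiratory complex I, and Acad10 were less abundant, at 274, 104 and 65.9 CPM in Axl KO and 258, 95.9 and 69.1 CPM in WT mice. Acad10 was the 1 dehydrogenase with a lower mean in Axl KO mice, with an interval of the log2 fold change from -0.28 to 0.14.

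Hydration, second oxidation and thiolysis are carried out on long chains by the trifunctional protein, made of Hadha and Hadhb, and on shorter chains by Echs1, Hadh and Acaa2. Hadha had 3066 ± 338 CPM in Axl KO and 2819 ± 196 CPM in WT mice and Hadhb 3473 ± 194 and 3268 ± 178 CPM, with log2 fold changes of 0.12 and 0.088. The gene bounds of GENCODE M21 put their starts 86 bases apart on chromosome 5, in opposite directions. RefSeq, the source of the promoter windows, places the start of Hadha farther from Hadhb. RefSeq's promoter windows of the pair share 228 bases, and the window of Hadhb, chr5:30155003-30155302 (GRCm38.p6, plus strand), is shown because both genes start beside or within it. Capitals mark GGGCGG, the core of a GC box, on either strand, which occurs 4 times.

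Hadhb: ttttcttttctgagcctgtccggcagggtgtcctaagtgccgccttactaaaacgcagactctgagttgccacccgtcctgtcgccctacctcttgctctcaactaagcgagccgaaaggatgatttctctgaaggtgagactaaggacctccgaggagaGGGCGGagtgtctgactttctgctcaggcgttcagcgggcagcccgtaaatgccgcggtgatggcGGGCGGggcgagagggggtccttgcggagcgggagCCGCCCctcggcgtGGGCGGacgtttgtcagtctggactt

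The ratio of Hadha to Hadhb stayed between 0.819 and 0.952 in all 10 mice, and its log2 value differed by 0.029 between the groups (exact permutation p = 0.556). With the group means removed, the log2 levels of the pair had a Pearson correlation of 0.88 over the 10 mice, which share library and depth. GGGCGG was present in 17 of the 24 promoter windows of the 23 members found in RefSeq's table (70.8%), beside 35.7% of all 32851 windows. AGGTCA, the half-site of nuclear receptors, was in 4 member windows (16.7%, beside 16.3% of all), TCAAGGTCA, the extended half-site, in 0 of the 24 windows (0.423% of all), and the direct repeat DR1 in 0 (0.0396% of all). Exact copies alone were searched, on both strands of 300 bases, from 250 before to 50 after the start. A TCAAGGTCA or DR1 match also counts as AGGTCA. TCAAGGTCA and DR1 are so rare over all windows that 0 of 24 says nothing about the members. For Acad11 the window is chr9:104063474-104063773 (GRCm38.p6, plus strand), shown because it is the member with no overlap between groups. Capitals mark 1 GGGCGG and 1 CCAAT, both read on the minus strand and not overlapping.

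Acad11: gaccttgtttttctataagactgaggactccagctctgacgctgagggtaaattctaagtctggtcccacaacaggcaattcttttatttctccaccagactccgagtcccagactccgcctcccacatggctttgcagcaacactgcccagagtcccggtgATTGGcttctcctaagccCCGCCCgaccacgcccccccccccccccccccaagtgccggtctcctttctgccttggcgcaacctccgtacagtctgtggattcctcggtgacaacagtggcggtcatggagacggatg

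CCAAT was found in 7 of the 24 windows, beside 37.4% of all windows.

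Acaa2 had the highest level per length and was lower on average in Axl KO mice. Axl KO mice had 2996, 3578.5, 2978, 3478 and 2721 CPM, and WT mice had 3334, 3499, 3344, 3366 and 3072 CPM. Axl KO mice 1, 3 and 5 lay below every WT mouse and mouse 2 lay above them all, so the Axl KO values straddled the WT range. The log2 fold change was -0.077 ± 0.080 (SE, edgeR adjusted p = 0.807). Axl KO mouse 5, in which 14 of the 28 members were at their highest, was thus the lowest of the 10 mice for Acaa2. Hadh, at 1797.5 ± 94.3 and 1812 ± 55.8 CPM, and Echs1, at 913 ± 57.2 and 891 ± 37.6 CPM, had intervals of -0.13 to 0.11 and -0.098 to 0.17 on the log2 scale.

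Decr1 and Eci1 prepare the double bonds of unsaturated fatty acids for oxidation. Decr1 had 1189, 1142.1, 1141.7, 1252.5 and 1363 CPM in Axl KO mice and 1116, 1171, 1072, 1153 and 1128 CPM in WT mice, with 3 Axl KO mice above all WT mice. Eci1 had 524 ± 50.5 and 478 ± 38.1 CPM, and the log2 fold changes were 0.11 and 0.13, neither past the unadjusted test.

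Electrons from the dehydrogenases pass to the electron transfer flavoprotein, a dimer of Etfa and Etfb, and from there to the quinone pool through Etfdh. Etfb had 808, 867, 725, 879.9 and 788 CPM in Axl KO mice and 764, 847, 887, 819 and 752 CPM in WT mice, fully overlapping, with means of 813.5 ± 63.1 and 813.8 ± 56.6 CPM and an interval of -0.16 to 0.15 on the log2 scale. Etfa had 1047 ± 82.5 and 1048 ± 54.9 CPM, with an interval of -0.15 to 0.15. The exons of Etfb overlap those of the gene model Gm45233 on the same strand over 53.0% of their length, and Gm45233 had 3304 to 6335 counts per mouse where Etfb had 4187 to 8009, so how reads were divided between them is uncertain.

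Etfdh did not follow its partners. Axl KO mice 1 to 5 had 2056, 1405, 2047, 1479 and 2281 CPM, and WT mice 1 to 5 had 1195, 2126, 1211, 1323 and 1231 CPM. Axl KO mice 1, 3 and 5 and WT mouse 2 stood together, at 2047 CPM or more, and the other 6 mice at 1479 CPM or less, so the spread within each group was nearly as large as the gap between the means. The log2 fold change, 0.39 ± 0.18 (SE), was the largest of the set, with 1854 ± 388 against 1417 ± 399 CPM (SD, n = 5). The exact permutation test gave p = 0.0714, and edgeR gave 0.0506 unadjusted and 0.597 adjusted. Its neighbours on chromosome 3, Rapgef2, Ppid and Fnip2, were highest in the same 4 mice, in both groups, and the part of this stretch of the chromosome, as against the loss of AXL, in the difference was not tested. Without WT mouse 2 the log2 fold change was 0.58 and without any other single mouse at least 0.30.

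The enzymes of ketone bodies and acetate were Oxct1, which activates acetoacetate for oxidation, Acat1, which splits acetoacetyl-CoA, Bdh1 and Acss1, which activates acetate in mitochondria. Acat1 had 1018.5, 1067, 1033, 1085 and 1164 CPM in Axl KO mice and 998, 1074, 992, 1049 and 1000.4 CPM in WT mice, with 2 Axl KO mice above all WT mice. Oxct1 had 399 ± 76.6 and 365 ± 32.1 CPM. Acss1 had 287 ± 69.8 and 241 ± 26.6 CPM, and its Axl KO values ran from 179 to 353 CPM, below and above the WT range of 209 to 268 CPM. The 3 genes tested were higher on average, with log2 fold changes of 0.070, 0.13 and 0.25, and none passed the unadjusted test. Bdh1 had at most 2.82 CPM in any mouse.

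Mlycd, malonyl-CoA decarboxylase, removes the inhibitor of carnitine palmitoyltransferase 1 and lies at chr8:119394878-119411102 on the plus strand. Axl KO mice had 115, 119, 96.2, 131 and 149 CPM, and WT mice had 90.2, 104, 96.0, 109 and 102 CPM. All Axl KO mice but mouse 3 were above the highest WT mouse. The means were 122 ± 19.6 and 100.3 ± 7.28 CPM (SD, n = 5), a log2 fold change of 0.28 ± 0.10 (SE). The exact permutation test gave p = 0.0397, and edgeR gave 0.0161 unadjusted and 0.571 adjusted.

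The members varied together from mouse to mouse. The mean of the 28 centred log2 levels was 0.043, 0.048, -0.089, 0.096 and 0.15 in Axl KO mice 1 to 5 and -0.14, 0.044, -0.069, -0.015 and -0.073 in WT mice 1 to 5. Axl KO mice 4 and 5 were the highest and WT mouse 1 the lowest, while Axl KO mouse 3 lay below 4 of the 5 WT mice. Axl KO mouse 5 was the highest mouse for 14 members and mouse 4 for 7, and WT mouse 3 was the lowest for 11, WT mouse 1 for 7 and Axl KO mouse 3 for 6. With group means removed, 330 of the 378 pairs of members were positively correlated over the 10 mice (median Pearson r 0.46). This describes points that share library and depth, and pairs of genes outside the set were not examined. Cpt2 and Hadha had r = 0.95, and Crat and Acad11 r = 0.94. Cpt1a alone had a negative median r with the other members (-0.19), with -0.70 for Eci1, and was highest in Axl KO mouse 3 (48.3 CPM) and WT mouse 5 (45.9 CPM). Acaa2 and Etfdh were also loosely tied to the others, with median r of 0.13 and 0.15.

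**Figure D4:**
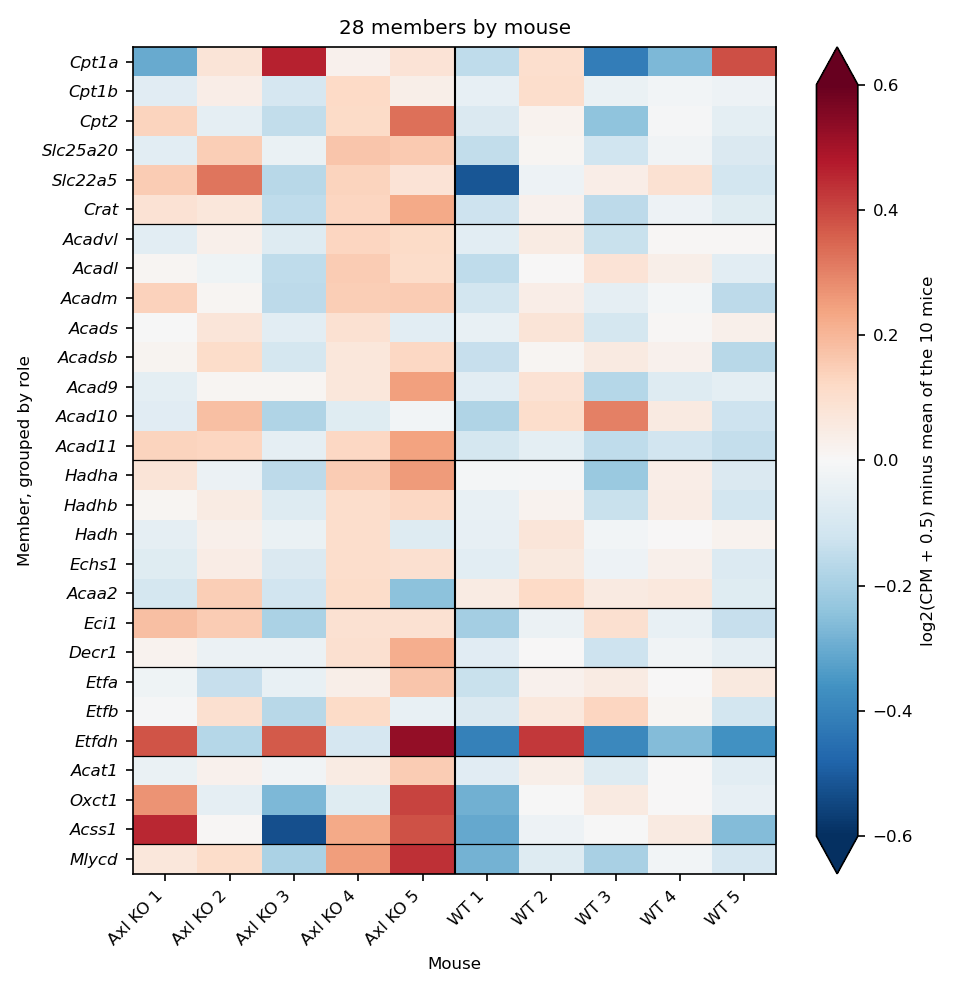
Each cell is the log2(CPM + 0.5) of 1 member in 1 mouse minus the mean of that member over the 10 mice, with members grouped by role and a line between Axl KO and WT mice. The column of Axl KO mouse 5 is the most raised (mean 0.15) and those of Axl KO mouse 3 and WT mouse 1 are lowered (-0.089 and -0.14). The rows of Cpt1a, Etfdh and Acaa2 run apart from most others.

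The tissue markers also differed between mice. The brown adipocyte sum was 9892, 9714, 9036, 10544 and 12343 CPM in Axl KO mice 1 to 5 and 7788, 9215, 7196, 9385 and 8529 CPM in WT mice 1 to 5, highest in Axl KO mouse 5 and lowest in WT mouse 3. Ucp1 alone made up 41.5 to 61.8% of it. The other 12 markers summed to 5021, 4859.9, 4159.6, 4973 and 4710.4 CPM in Axl KO mice and 4315, 4475, 4207, 4345 and 4178 CPM in WT mice. By this sum, Axl KO mouse 5 was below Axl KO mice 1, 2 and 4. Its single markers went both ways. Besides Ucp1, it had the most Dio2, Elovl3, Cox7a1, Prdm16 and Zic1 of the 10 mice (149, 164, 678, 48.0 and 12.8 CPM). It had the least Adrb3 (186.5 CPM) and the least Cidea (1501 CPM), a lipid droplet protein of brown adipocytes. Cidea had the highest mean of the 12 markers (1751 CPM). Axl KO mouse 3, whose member mean was below 4 of the 5 WT mice, had a full sum above WT mice 1, 3 and 5 but the lowest sum of all 10 mice without Ucp1. Of the markers, Ucp1 had a log2 fold change of 0.43 (edgeR adjusted p = 0.571) and Dio2, the deiodinase that activates thyroid hormone, 0.89 (edgeR adjusted p = 0.571). The white adipocyte sum over the 6 markers with a count was 309.8, 323, 646, 281 and 212 CPM in Axl KO mice. In WT mice it was 591, 521, 283, 285 and 544 CPM. Lep made up most of this sum, with 176 to 595 CPM in Axl KO and 212 to 538 CPM in WT mice. The sum therefore reads mainly 1 gene. Lep had a log2 fold change of -0.37 and Retn, another of the markers, 0.49, neither at an unadjusted p under 0.05. Axl KO mouse 3 and WT mice 1 and 5, with a white adipocyte sum of 544 CPM or more, had member means of -0.089, -0.14 and -0.073. WT mouse 2, at 521 CPM, had 0.044, and WT mice 3 and 4, at 283 and 285 CPM, had -0.069 and -0.015. Axl KO mice 1, 2, 4 and 5, at 212 to 323 CPM, had 0.043, 0.048, 0.096 and 0.15. Skeletal muscle, which also oxidises fatty acids, was nearly absent from Axl KO mice 1 and 2 (145 and 104 CPM) and reached 9824 CPM in Axl KO mouse 5. With the muscle markers as a covariate the median log2 fold change of the members was 0.098 and 23 of 28 were higher, with Acads now lower and Etfa now higher. The part of brown or white adipocyte content in the member levels was not tested.

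**Figure D5:**
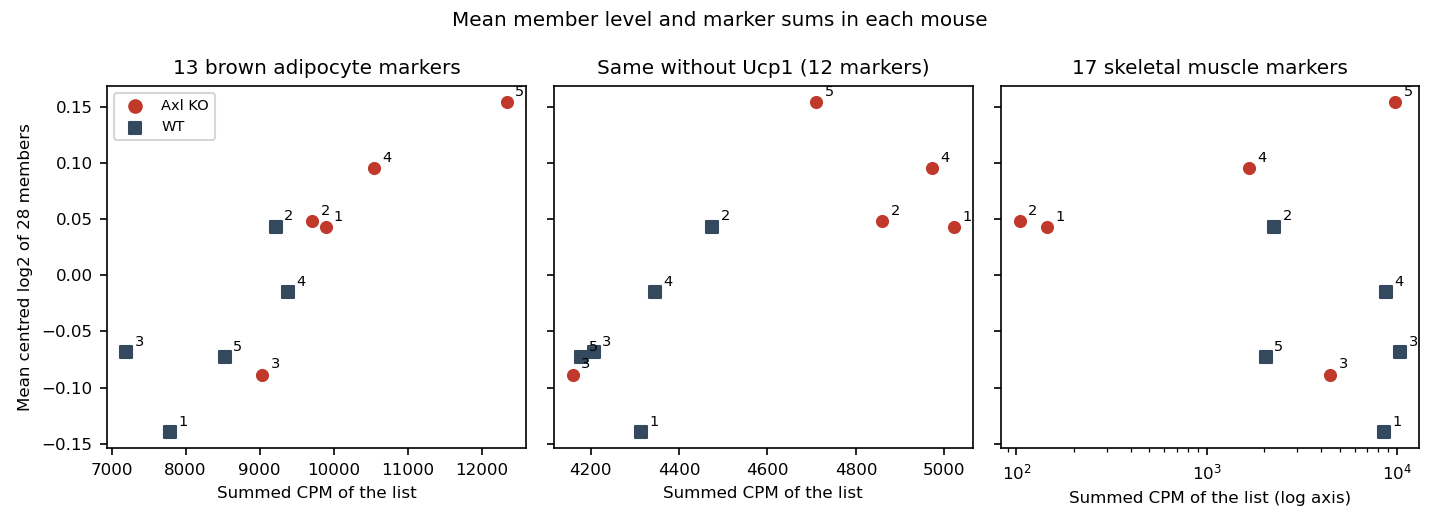
The mean centred log2 level of the 28 members in each mouse (vertical axis) is set against the summed CPM of 13 brown adipocyte markers (left), of 12 of them without Ucp1 (middle) and of 17 skeletal muscle markers (right, log axis), with mouse numbers beside the points. Axl KO mouse 5, with the highest member level (0.15), is highest for the 13 markers (12343 CPM) but not without Ucp1 (4710.4 CPM), and the muscle sums of Axl KO mice spread from 104 to 9824 CPM.

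Of 54 other genes of the pathway, 48 were tested and 39 had a higher mean in Axl KO mice (median 0.087 on the log2 scale), beside 49.8% of all genes. None passed the adjusted threshold. At an unadjusted p under 0.05, 5 were higher and 1 lower, beside 4.54% and 3.86% of all genes. These genes share mice and libraries too, so their counts are not independent observations. Among those higher were Slc16a1, the monocarboxylate transporter that carries ketone bodies and lactate (593.7 ± 58.1 against 487 ± 45.2 CPM, edgeR adjusted p = 0.571), Acot2, a mitochondrial acyl-CoA thioesterase, Prkaa1, a catalytic subunit of AMP-activated kinase, and Acss3, another acyl-CoA synthetase of short chains. Slc16a7, a second monocarboxylate transporter, was the lower one, at 45.1 ± 16.6 and 65.6 ± 10.4 CPM (log2 fold change -0.54, edgeR adjusted p = 0.571). By list, 14 of 17 regulators, 11 of 12 other oxidation enzymes, 6 of 6 genes of acyl-CoA supply, 6 of 8 other ketone and acetate genes and 2 of 5 carnitine genes were higher on average. The lowest p among the other oxidation enzymes was that of Ecsit (0.0977) and among the carnitine genes that of Aldh9a1 (0.160), both unadjusted from edgeR.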

How the data were processed

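RNA of whole iBAT depots from 10 mice on HFD was sequenced, 1 library per mouse, and the authors deposited raw read counts per Ensembl gene for each mouse, not normalized or pooled. The study's methods name Trim Galore and hisat2 on GRCm38 after rRNA depletion, while the submitters' processing notes list Trimmomatic 0.36, STAR 2.6.1c and GRCm38.p5, and the labels polyadenylated RNA. The counting tool, its strand setting and its treatment of shared reads are not given in the sources used here, so counts of overlapping genes are uncertain. Identifiers were named with GENCODE M21; 41163 of 41249 matched. Genes with a mean above 1 CPM were compared in R 4.3.3 with edgeR 4.0.16 (TMM, quasi-likelihood test, no covariate) and Benjamini-Hochberg adjustment over all 13739 genes tested. Normalised levels are in CPM, divided by exon length where levels of genes are compared. Ratios of 6 pairs of members, computed after adding 0.5 CPM, were compared by two-sided exact permutation tests. The procedure was tested on simulated data. Replicates are separate mice; the totals of 5431014 to 9580215 counts set the precision of low genes such as Bdh1, and any 2 mice differed by more than counting error (lowest chi-square, divided by the number of genes, 5.39). DESeq2 1.42.0, other normalizations and filters, each mouse left out, a muscle covariate, GC offsets and the replicate number as a block were alternatives; DESeq2 with a mouse left out, the principal transcript, the brown adipocyte sum without Ucp1 and leaving out Axl KO mice 3 and 5 together were added after the data were seen. The members, lists and tests were chosen with earlier results of these data known. All 29 members are named; values in every mouse are given for the highest per kilobase in each role, for members without overlap and for the 5 lowest unadjusted p, and other pathway genes are named past the threshold or, per list, at the lowest p, with the additional genes below an unadjusted p of 0.05 and the Acss1 values chosen after they were seen. Promoter windows are from RefSeq (GRCm38.p6), with 23 of 29 members matched. One gene of the pathway lists is not reported here by name.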

Additional observations from a re-analysis of the deposited data

Results flagged for a closer look

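A mouse stood far from the others of its group, by Dixon's test at 95% for 5 samples, in 6 of the 72 sets of values examined, where 3.6 are expected by chance. WT mouse 2 had 1803 CPM of Cpt1b, with the nearest WT mouse at 1654 CPM. The same mouse had 2126 CPM of Etfdh, with the nearest at 1323 CPM. Axl KO mouse 3 had 438 CPM of Eci1, below the nearest at 531 CPM. Axl KO mouse 5 had 2.82 CPM of Bdh1 from 15 counts, with the nearest at 0.309 CPM. Axl KO mouse 4 had 0.437 CPM of Axl itself, from 3 counts, below the nearest at 1.69 CPM. The ratio of Etfa to Etfb was 1.45 in WT mouse 5, above the nearest at 1.28. The source of these values was not tested.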

How the results depend on the processing

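No member was called under edgeR in any of its alternatives, and 1 gene, Axl, was called in each. DESeq2 called 9 genes and 0 members. With 1 mouse left out it called between 1 and 234 genes: 234 without Axl KO mouse 3, 5, 6, 4 and 8 without Axl KO mice 1, 2, 4 and 5, and 4, 2, 8 and 3 without WT mice 2 to 5. Without Axl KO mouse 3, DESeq2 called 4 members, all higher: Acad11 (log2 fold change 0.27, adjusted p = 1.47e-05), Mlycd (0.36, 0.0118), Acss1 (0.38, 0.0224) and Crat (0.20, 0.0284), whereas edgeR on the same 9 mice called 0. In the whole data DESeq2 gave Acad11 an adjusted p of 0.0939. Members at an unadjusted p under 0.05 numbered 3 in the 10 mice, where 4.54% of all genes were higher and 3.86% lower. Without Axl KO mouse 3 they numbered 10, all higher, beside 7.73% of all genes higher at that level. They numbered 5 in DESeq2, 7 without Axl KO mice 3 and 5, and 2 to 5 with another single mouse left out. The share of all genes was not counted in those settings, so these counts cannot be read as particular to the members. The median log2 fold change of the members ran from 0.065, without Axl KO mouse 5, to 0.13 with 1 mouse left out, and 21 to 26 members were higher. Estimates close to 0 changed sign. Without Axl KO mice 3 and 5, Cpt1a was -0.019, Hadh 0.022, Acaa2 0.011 and Etfb 0.065. With the muscle covariate Acads was -0.033 and Etfa 0.051, with GC offsets Etfa was 0.00093 and Etfb 0.0071, and with GC offsets and the block Etfb was 0.0084. Leaving out 1 mouse gave -0.018 to 0.041 for Cpt1b, -0.011 to 0.036 for Acads, -0.13 to 0.0032 for Acad10, -0.040 to 0.0050 for Hadh, -0.046 to 0.033 for Etfa and -0.030 to 0.038 for Etfb. The log2 ratio differences ran from -0.054 to 0.057 for Etfa to Etfb, -0.12 to 0.45 for Oxct1 to Bdh1 and -0.044 to 0.055 for Cpt2 to Slc25a20. Same-numbered mice had correlations of -0.18, 0.37, 0.030, 0.034 and -0.36 between their deviations from the group means. So few values cannot decide whether the numbers are pairs. With the replicate number as a block 0 members and 1 gene were called and the median was 0.11. The cause of these changes was not tested. Depth limits Bdh1, with 0 to 15 counts per mouse.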

Other observations

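Genes beside Etfdh had values that tracked it from mouse to mouse, a pattern noticed after the values were seen and given here as a description. Of the 6 other tested genes within 1 Mb of Etfdh on chromosome 3 (chr3:79603788-79629500, GRCm38), Rapgef2, a guanine nucleotide exchange factor (chr3:79062516-79286517), had a Pearson r of 0.91 with Etfdh over the 10 mice. Ppid, a cyclophilin gene that lies next to Etfdh (chr3:79591342-79603650), had r = 0.87, and Fnip2, a folliculin-interacting protein (chr3:79455974-79567796), had r = 0.80. Among all genes tested, these values ranked 2, 10 and 43. With the group means removed they were 0.91, 0.85 and 0.73, over mice that share library and depth.

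Rapgef2 had 106, 75.1, 115, 76.6 and 99.4 CPM in Axl KO mice 1 to 5 and 73.4, 114, 69.5, 72.9 and 83.6 CPM in WT mice 1 to 5. Axl KO mice 1, 3 and 5 and WT mouse 2, the 4 mice with the most Etfdh, were also the 4 with the most Rapgef2. Ppid had 50.3, 33.4, 52.7, 29.8 and 47.8 CPM in Axl KO mice and 30.9, 44.1, 37.1, 35.6 and 31.2 CPM in WT mice, and the same 4 mice were highest again. Fnip2 had 31.9, 23.4, 30.9, 22.9 and 28.04 CPM in Axl KO mice and 17.3, 28.2, 25.6, 22.2 and 23.5 CPM in WT mice, again highest in those 4. The part of this stretch of chromosome 3 in the Etfdh values was not tested. Fam198b, farther along on the other side (chr3:79884533-79946280), had r = 0.25. The remaining 2, Gm37973 and 4930579G24Rik, had at most 4.52 CPM.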
